A study of Arabidopsis thaliana with 6 samples.

Results

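The genes of plastid fatty acid synthesis were followed in seeds of Arabidopsis thaliana, together with WRI1, the transcription factor of the pathway. The 32 genes were taken by locus from a list made for the pathway, which holds WRI1, plastid pyruvate kinase, plastid pyruvate dehydrogenase, lipoic acid synthase, acetyl-CoA carboxylase, the acyl carrier proteins (ACPs), the fatty acid synthase steps, a stearoyl-ACP desaturase, the thioesterases and the acyl-CoA synthetase LACS9. All 32 were in the table of 16967 genes, and all 32 passed the filter on low values. Whole seeds were compared between Col-0, the wild-type accession, and tt7-7, which carries a mutation in TT7, the gene for flavonoid 3'-hydroxylase. Both groups were harvested at 8 days after pollination, with 3 samples each, and the labels give no other allele, agent or treatment.

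Fatty acids of plants are made in the plastid. Pyruvate kinase and pyruvate dehydrogenase supply acetyl-CoA, acetyl-CoA carboxylase turns it into malonyl-CoA, and the fatty acid synthase enzymes lengthen the chain in repeated cycles while it is held on an acyl carrier protein. In developing seeds the products feed the storage oil, and WRI1, an AP2-type factor, is known to activate many of these genes through a promoter element called the AW-box.

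The AW-box letters CNTNGNNNNNNNCG, in which N is any base, were searched on both strands in 300 bases around each RefSeq gene start (250 before it and 50 after it, assembly TAIR10.1). The match was found in 8 of the 32 genes, or 25%, and in 3261 of 27443 protein-coding promoters, or 11.9%. Among the protein-coding genes of the expression table the share was 11.8%. The 8 windows are shown because they are the only copies of these letters in the search windows of the 32 genes. Capitals mark the motif, each run reads 5′ to 3′ in the direction of the motif, and the strand is that of the printed run.
ACP5, chr5:9571139-9571168, plus strand: ttcacgctCCTTGAACAATCCGccatctct
ACP1, chr3:1392928-1392957, minus strand: ttcacgctCTTTGTACACTCCGccctctct
CAC3, chr2:15917026-15917055, plus strand: aggagtcaCGTGGGCACGTGCGagagagca
PDH-E1 ALPHA, chr1:49365-49394, minus strand: gaaaaaaaCATTGGTGTTAACGaagaaggg
PDH-E1 BETA, chr1:10586662-10586691, plus strand: catgtttaCATTGTTTTCATCGaactcatg
AT4G16155, chr4:9157219-9157248, minus strand: catctccgCTTTGATATCTCCGcctccgct
AT2G22230, chr2:9449955-9449979, plus strand: acacaaacCTTTGTACTCTCCGctc
LACS9, chr1:29152522-29152551, plus strand: ccaattctCATTGCACAAAACGctcttatt
With the first base of the gene counted as 0, the ACP5 motif lay at -38 to -25 and the ACP1 motif at 5 to 18, inside the transcribed part. The ACP1 and ACP5 windows open with the same letters, ttcacgct. The other 24 genes held no such letters in this window, and a match describes the letters only, not binding by WRI1.

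The genes were among the more abundant messages of the seed in both genotypes. Levels are RPKM, read counts divided by transcript length and library size, so they can be compared between genes. The median of the 32 genes lay between the 95.1 and the 96.2 percentile of all genes in every sample. Mean levels over the 6 samples ran from 42.2 RPKM for LPD1, the E3 subunit of pyruvate dehydrogenase, to 737 RPKM for ACP2. The summed level of the 32 genes made up 0.784%, 0.906% and 0.661% of all RPKM in the Col-0 samples (replicates 1, 2 and 3, the order used throughout) and 0.909%, 0.806% and 0.946% in the tt7-7 samples. The groups overlapped, so no separation of the genotypes was seen in the summed level.

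**Figure D1:**
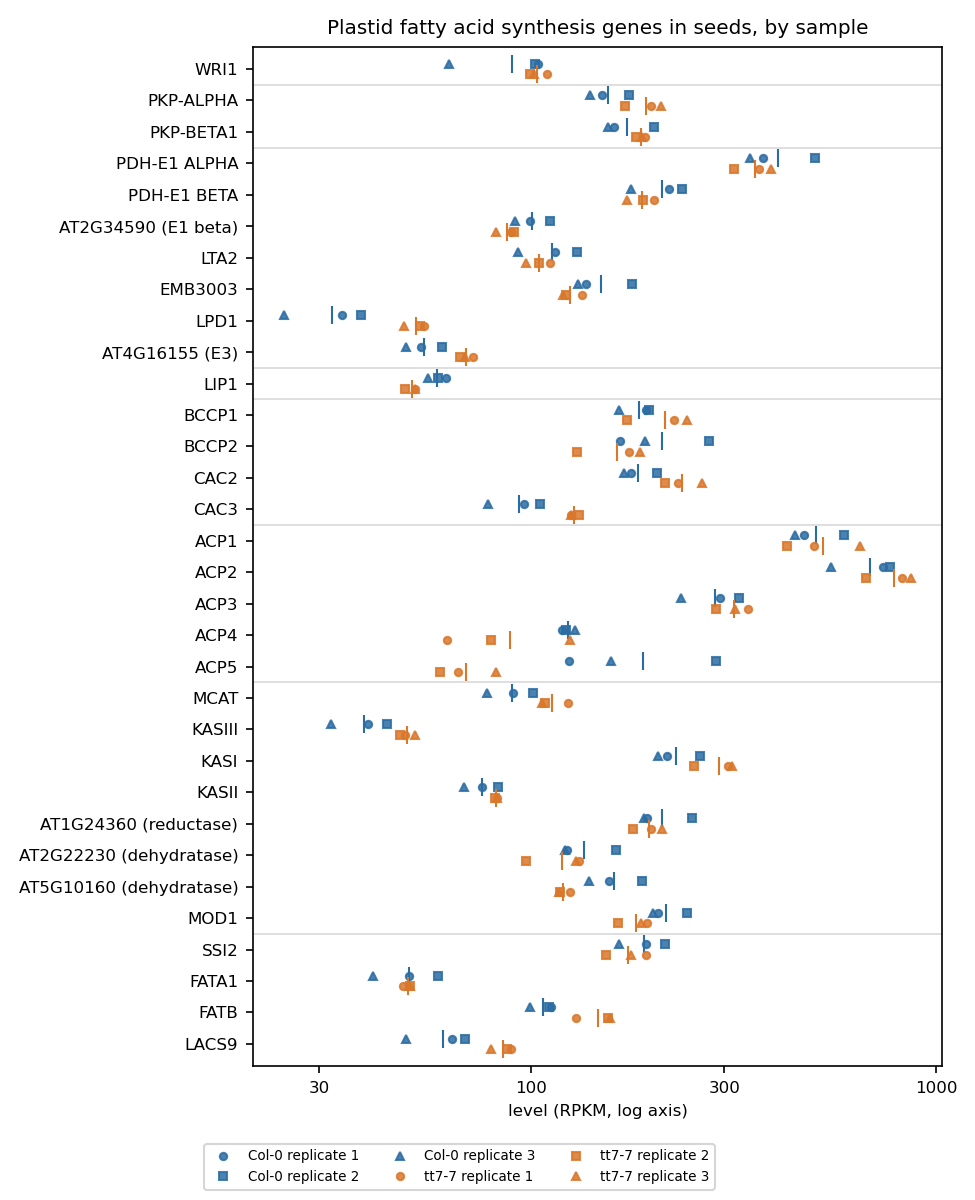
Level of each gene in each of the 6 seed samples, in RPKM on a log axis, with Col-0 in blue and tt7-7 in orange, symbols for replicates and a vertical tick for the group mean. The groups sit close together for most genes, and ACP5 is the gene whose tt7-7 samples (59.8 to 81.8 RPKM) lie farthest below Col-0 (124 to 286 RPKM).

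Most of the pathway differed little between the genotypes on the deposited scale, and a single acyl carrier protein gene, ACP5, fell strongly. Of the 32 genes, 5 were called higher in tt7-7 (LPD1, AT4G16155, CAC3, FATB and LACS9), 2 were called lower (ACP5 and the dehydratase gene AT5G10160) and 25 were not called, at a limma adjusted p of 0.05 over 16663 tested genes. The 7 called genes were 21.9% of the list, where 59.6% of all tested genes were called. The higher calls were 15.6% of the list against 51.1% of all tested genes, and the lower calls were 6.25% against 8.47%. Most tested genes have a lower level than these, and among the 2711 genes within the level range of the 32 genes 43.9% were called. The groups did not overlap for 13 of the 32 genes, 8 higher and 5 lower in tt7-7, while they did not overlap for 66.2% of all tested genes.

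The log2 fold changes of the 32 genes (tt7-7 minus Col-0) had a median of 0.09, and 28 of them lay within 0.5 of 0. Their range was -1.36 for ACP5 to 0.69 for LPD1. The median over all tested genes was 0.44 on this scale, and 28 of the 32 genes lay below it. Over the genes of the same level range the median was 0.04. With single samples left out, between 1 and 4 of the 32 genes were called higher and 1 or 2 lower, with 1 higher and 1 lower without tt7-7 replicate 2. These counts have no share over all tested genes beside them and are not read as a result about the list. The median stayed between -0.01 and 0.18.

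For most of the 32 genes the direction of the change turned on how samples were scaled to each other. Median-ratio scaling, which divides each sample by its median ratio to the average sample, moved the median over all genes to -0.03 and that of the 32 genes to -0.43. On that scale 0 of the 32 genes were called higher, where 26% of all tested genes were, and 16 were called lower, where 27.8% of all tested genes were. Of the genes in their level range, 55.9% were called lower on that scale and the median was -0.48, so the share of lower calls in the list, 16 of 32, was no higher than in its level range. In all 17 of the genes changed sign, and 31 of 32 lay below 0. Quantile normalization, which gives every sample the same distribution of values, put the median over all genes at 0.03 and that of the list at 0.19. On that scale 11 genes were called higher (background 26.7%) and 3 lower (background 21.5%). The share in their level range is not given for that scale, so these counts are not read as particular to the list. ACP5 and AT5G10160 were called lower on all 3 scales.

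**Figure D2:**
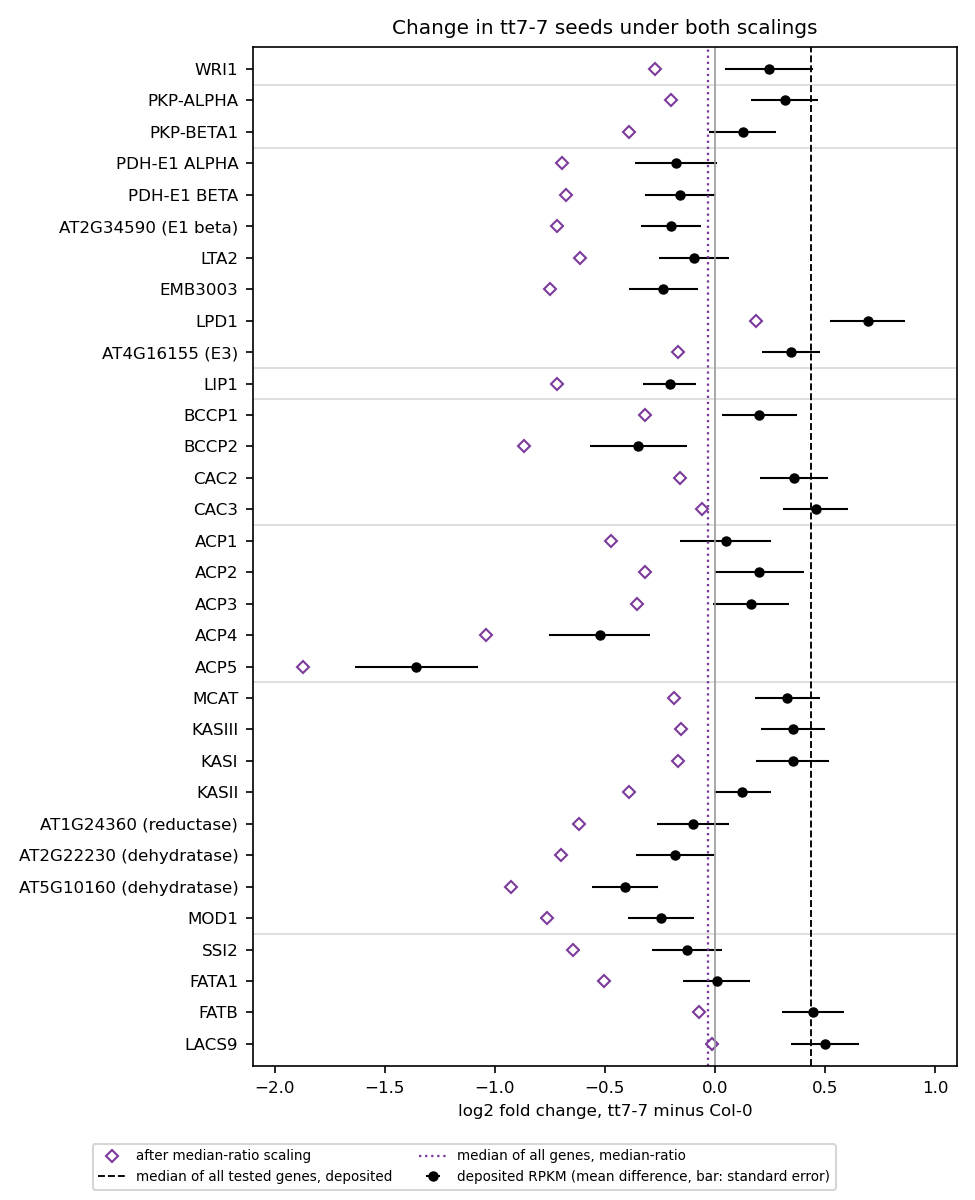
Log2 fold change of each gene (tt7-7 minus Col-0, 3 samples each) on the deposited RPKM scale as black points with standard errors, and after median-ratio scaling as open purple diamonds, with the median over all genes as a dashed and a dotted line. The deposited values centre on 0.09, and the diamonds lie about as far to the left as the median over all genes moves, from 0.44 to -0.03.

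**Figure D3:**
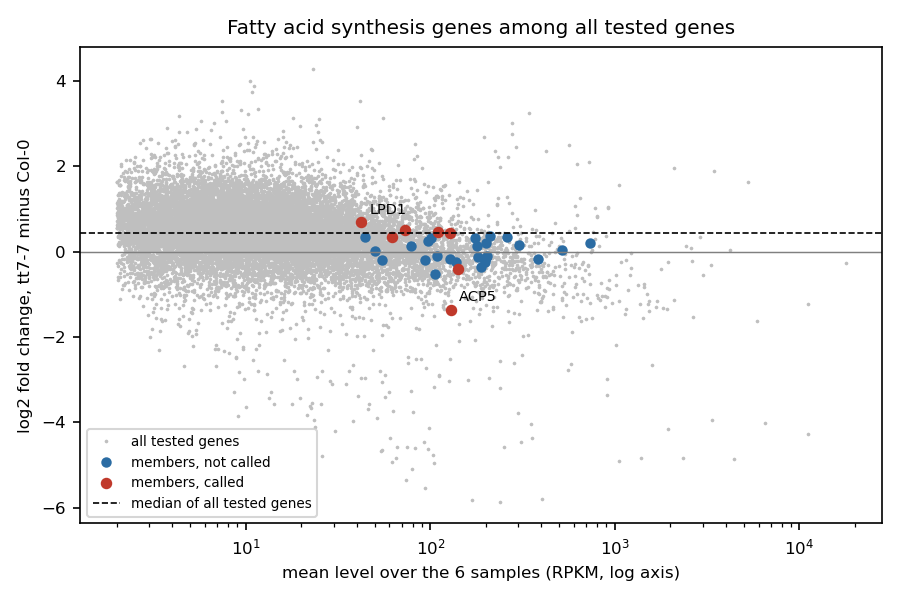
Mean level over the 6 samples (RPKM, log axis) against log2 fold change (tt7-7 minus Col-0) for the 16663 tested genes in grey, with the 32 genes in blue where not called and red where called at a limma adjusted p of 0.05. The list lies in the band between 42.2 and 737 RPKM, where the median change was 0.04, and ACP5 at -1.36 and LPD1 at 0.69 mark its ends.

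TT7 itself had 499, 272 and 240 RPKM in Col-0, and 86.0, 97.4 and 103 RPKM in tt7-7. Library totals recovered from the RPKM steps ran from 13677094 to 20547689 reads, and each value of the 32 genes rested on 664 to 17826 reads. Markers of other states and tissues were measured beside the pathway. The 9 embryo maturation markers (seed storage proteins and oleosins) were all called lower in tt7-7, with summed levels of 19865, 41500 and 127376 RPKM in Col-0 and 3962, 915 and 6030 RPKM in tt7-7. The 8 green tissue markers were all called lower as well, from 30861 to 37232 RPKM in Col-0 and from 12277 to 16059 RPKM in tt7-7. Of 7 seed coat markers 4 were called higher, a share near the 51.1% of all tested genes. Their summed levels, over all 7, were 529 to 810 RPKM in Col-0 and 1046 to 1376 RPKM in tt7-7. Among the 4 called, TT16 (AT5G23260) was at 4.86, 2.27 and 1.26 RPKM in Col-0. It passed the limit of the table only through tt7-7. Of 7 endosperm markers 3 were in the table, of which 2 were called higher, too few to set against the 51.1%. Their summed levels were 20.8 to 45.6 RPKM in Col-0 and 50.4 to 60.0 RPKM in tt7-7, and the other endosperm markers were not analysed here. The 2 called, FIS2 and FWA, also passed the limit of the table only through tt7-7. The filter thus favoured the direction of TT16, FIS2 and FWA, and their calls give no support for a rise. No marker in the table was at 0 in any sample. Their part in the results below was not tested, and in whole seeds fewer cells of a type and less RNA per cell cannot be told apart.

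WRI1 (AT3G54320) was not called. Its level was 104, 102 and 62.6 RPKM in Col-0, and 110, 99.7 and 102 RPKM in tt7-7. The means were 89.7 ± 23.5 RPKM and 104 ± 5.37 RPKM (SD, n = 3), and 2 Col-0 samples lay within the range of the mutant while Col-0 replicate 3 was low. The log2 fold change was 0.24 ± 0.20 (SE, limma adjusted p 0.316), and it was 0.01 without Col-0 replicate 3. After median-ratio scaling it was -0.27 (limma adjusted p 0.185), so WRI1 gave no direction that held across scalings.

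Plastid pyruvate kinase makes the pyruvate that enters the pathway. PKP-ALPHA (AT3G22960) was at 150, 174 and 140 RPKM in Col-0 and 198, 171 and 210 RPKM in tt7-7. PKP-BETA1 (AT5G52920), the partner subunit, was at 160, 202 and 155 RPKM in Col-0 and 191, 182 and 188 RPKM in tt7-7. Neither subunit was called, with log2 fold changes of 0.32 and 0.13 that became -0.20 and -0.39 after median-ratio scaling. After quantile normalization PKP-ALPHA was called higher at 0.47 (limma adjusted p 0.0154), and PKP-BETA1 was at 0.29 and not called. The ratio of the beta to the alpha subunit within a sample does not depend on the scaling. It was 1.07, 1.16 and 1.11 in Col-0 and 0.966, 1.06 and 0.896 in tt7-7, so the groups did not overlap, with a log2 difference of -0.19 and a two-sided exact permutation p of 0.1. An exact p of 0.1 is the smallest that 3 against 3 samples allow, and adjusted over the 13 ratios and shares computed it became 0.186.

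In plastid pyruvate dehydrogenase, which converts pyruvate to acetyl-CoA, the E3 genes (dihydrolipoyl dehydrogenase) rose on the deposited scale and the E1 and E2 genes were not called. LPD1 (AT3G16950) was at 34.3, 38.0 and 24.6 RPKM in Col-0 and at 54.6, 53.2 and 48.5 RPKM in tt7-7. Every mutant sample lay above every wild-type sample. Its means of 32.3 ± 6.90 RPKM and 52.1 ± 3.20 RPKM (SD, n = 3) gave a log2 fold change of 0.69 ± 0.17 (SE, limma adjusted p 0.00697). LPD1 was called with any single sample left out (0.52 to 0.82) and after quantile normalization (0.48), but after median-ratio scaling it was at 0.19 (limma adjusted p 0.289).

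The second E3 gene, AT4G16155, was at 53.5, 60.3 and 49.3 RPKM in Col-0 and at 71.9, 66.8 and 68.8 RPKM in tt7-7. Again the groups did not overlap, and the log2 fold change was 0.35 ± 0.13 (SE, limma adjusted p 0.0454). The call was lost with any of the 6 samples left out, at limma adjusted p values of 0.0543 to 0.130 and changes of 0.28 to 0.42, and the change was -0.17 after median-ratio scaling. The ratio of LPD1 to AT4G16155 was 0.640, 0.631 and 0.50 in Col-0 and 0.760, 0.796 and 0.705 in tt7-7. LPD1 thus made up a larger part of the E3 messages in each mutant sample, with a log2 difference of 0.36 (exact permutation p 0.1, adjusted 0.186). The difference was 0.24 without Col-0 replicate 3.

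The other pyruvate dehydrogenase genes were not called on the deposited scale. PDH-E1 ALPHA (AT1G01090), the E1 alpha subunit, was at 375, 502 and 347 RPKM in Col-0 and 366, 316 and 390 RPKM in tt7-7, and Col-0 replicate 2 stood above the rest. PDH-E1 BETA (AT1G30120), an E1 beta subunit, was at 219, 237 and 177 RPKM in Col-0 and 201, 189 and 173 RPKM in tt7-7. AT2G34590, the other E1 beta gene, was at 99.7, 111 and 91.2 RPKM in Col-0 and 89.1, 90.7 and 82.2 RPKM in tt7-7. The log2 fold changes of these E1 genes were -0.18, -0.16 and -0.20. The ratio of PDH-E1 BETA to AT2G34590 was near 2 in every sample, from 1.94 to 2.20 in Col-0 and from 2.09 to 2.25 in tt7-7, with a log2 difference of 0.04 (exact permutation p 0.6).

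LTA2 (AT3G25860), an E2 acetyltransferase, was at 115, 130 and 93.2 RPKM in Col-0 and 111, 105 and 97.2 RPKM in tt7-7. EMB3003 (AT1G34430), the other E2 gene, was at 137, 177 and 131 RPKM in Col-0 and 133, 122 and 120 RPKM in tt7-7. Their log2 fold changes were -0.10 and -0.23, and their ratio overlapped between the groups (log2 difference 0.14, exact permutation p 0.3). After median-ratio scaling the 5 E1 and E2 genes were all called lower, at -0.75 to -0.61, where the E3 genes were at 0.19 and -0.17. On that scale 27.8% of all tested genes and 55.9% of those in the level range were called lower. After quantile normalization none of the 5 was called (-0.20 to 0.21). There LPD1 was called higher at 0.48, and AT4G16155 at 0.22 was not called, close to PDH-E1 ALPHA at 0.21. LIP1 (AT2G20860), a lipoic acid synthase that RefSeq places in the mitochondrion and not the plastid, was at 61.8, 58.9 and 55.6 RPKM in Col-0 and 51.7, 49.0 and 51.7 RPKM in tt7-7. Its groups did not overlap, and its log2 fold change of -0.21 was not called (limma adjusted p 0.169), while it was called lower after median-ratio scaling (-0.72) and quantile normalization (-0.36).

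Acetyl-CoA carboxylase forms malonyl-CoA from subunits encoded in the nucleus and, for the carboxyltransferase beta subunit, in the plastid genome. Among the 4 nuclear genes of the list 1 was called higher. CAC3 (AT2G38040), the carboxyltransferase alpha subunit, was at 96.4, 105 and 78.4 RPKM in Col-0 and at 126, 132 and 126 RPKM in tt7-7. The groups did not overlap, and the log2 fold change was 0.46 ± 0.15 (SE, limma adjusted p 0.0247). CAC3 was not called without Col-0 replicate 3 (0.34, limma adjusted p 0.0510), tt7-7 replicate 1 (0.47, 0.0594) or tt7-7 replicate 2 (0.44, 0.0807), and it was at -0.06 after median-ratio scaling. After quantile normalization it stayed called higher (0.50, limma adjusted p 0.00964).

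CAC2 (AT5G35360), the biotin carboxylase, was at 177, 204 and 170 RPKM in Col-0 and at 230, 214 and 264 RPKM in tt7-7. Its groups did not overlap, but the log2 fold change of 0.36 was not called (limma adjusted p 0.0688). CAC2 was at -0.16 and not called after median-ratio scaling, and it was called higher after quantile normalization (0.55, limma adjusted p 0.0118). The biotin carrier is encoded by a pair of genes, of which BCCP1 is known as active in most tissues and BCCP2 mainly in seeds. BCCP1 (AT5G16390) was at 193, 196 and 165 RPKM in Col-0 and at 225, 173 and 243 RPKM in tt7-7. BCCP2 (AT5G15530) was at 166, 275 and 191 RPKM in Col-0 and at 175, 130 and 186 RPKM in tt7-7. Their log2 fold changes of 0.20 and -0.35 were not called, and the groups overlapped for both genes. After median-ratio scaling BCCP1 was at -0.32 and not called, and BCCP2 was called lower at -0.87 (limma adjusted p 0.0199), with groups that did not overlap.

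The balance of the biotin carriers does not depend on the scaling. The ratio of BCCP2 to BCCP1 was 0.861, 1.41 and 1.16 in Col-0 and 0.776, 0.75 and 0.764 in tt7-7. All 3 mutant ratios lay below all wild-type ratios and within a narrow range, at a mean of 0.763 ± 0.0128 against 1.14 ± 0.273 (SD, n = 3). The log2 difference was -0.55 (exact permutation p 0.1, adjusted 0.186), and it was -0.39 without Col-0 replicate 2. The transcripts of the pair share no stretch of 50 bases, so reads of that length from one do not match the other exactly.

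**Figure D4:**
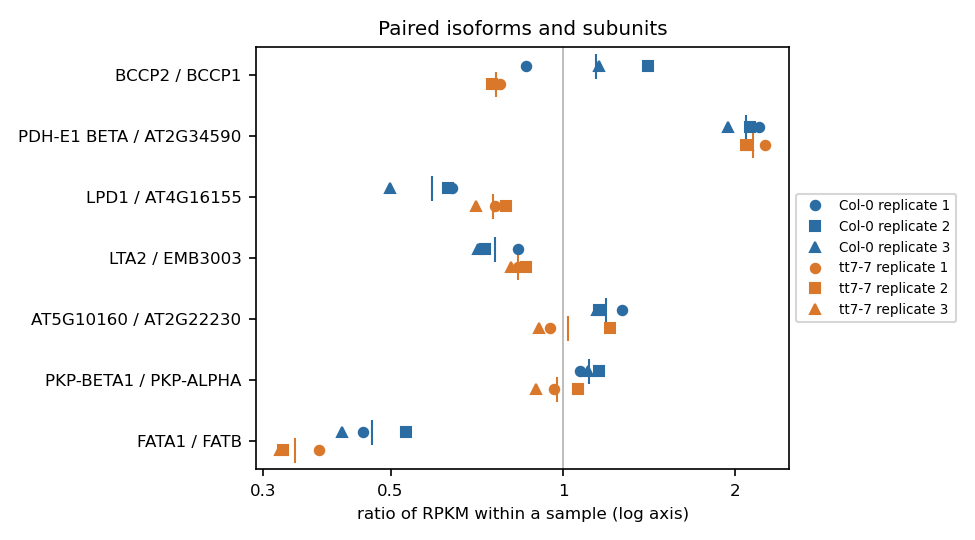
Ratio of RPKM of paired genes within each sample, on a log axis, with Col-0 in blue and tt7-7 in orange, symbols for replicates and a vertical tick for the group mean. The mutant ratios lie apart from the wild type for BCCP2 over BCCP1 (0.75 to 0.776 against 0.861 to 1.41), LPD1 over AT4G16155, PKP-BETA1 over PKP-ALPHA and FATA1 over FATB, and overlap for the E1 beta, E2 and dehydratase pairs.

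Acyl carrier proteins hold the growing chain, and of their 5 plastid genes only ACP5 was called. ACP5 (AT5G27200) was at 124, 286 and 157 RPKM in Col-0 and at 66.2, 59.8 and 81.8 RPKM in tt7-7. Every mutant sample lay below every wild-type sample, and Col-0 replicate 2 was the highest. The means were 189 ± 85.5 RPKM and 69.3 ± 11.3 RPKM (SD, n = 3), 2.73-fold lower in tt7-7, with a log2 fold change of -1.36 ± 0.28 (SE, limma adjusted p 0.00282). The change was -1.87 after median-ratio scaling and -1.34 after quantile normalization, and it was called with any single sample left out, between -1.61 and -1.01 (the latter without Col-0 replicate 2).

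The other acyl carrier protein genes were not called. ACP2 (AT1G54580) was the most abundant in every sample, at 741, 768 and 551 RPKM in Col-0 and 823, 670 and 867 RPKM in tt7-7. ACP1 (AT3G05020) was at 472, 591 and 450 RPKM in Col-0 and 500, 428 and 649 RPKM in tt7-7. ACP3 (AT1G54630) was at 292, 326 and 235 RPKM in Col-0 and 344, 286 and 318 RPKM in tt7-7. Their log2 fold changes were 0.20, 0.05 and 0.16, below 0 after median-ratio scaling (-0.32, -0.47 and -0.36), and above it with calls after quantile normalization (0.72, 0.50 and 0.45). ACP2 and ACP3 transcripts are 90.5% identical and share 14 of 964 windows of 50 bases, so some of their reads could have been divided between them.

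ACP4 (AT4G25050), known as the main leaf form, was at 119, 122 and 128 RPKM in Col-0 and 62.2, 79.8 and 125 RPKM in tt7-7. Here tt7-7 replicate 3 lay inside the wild-type range and the other mutant samples below it. The log2 fold change was -0.52 ± 0.23 (SE, limma adjusted p 0.0740). Without tt7-7 replicate 3 it was -0.80 and called (limma adjusted p 0.00468), and without tt7-7 replicate 1 it was -0.30. The call after median-ratio scaling was lower at -1.04.

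Within the 5 acyl carrier protein genes, ACP5 lost share. It held 7.10%, 13.7% and 10.3% of their summed RPKM in Col-0 and 3.69%, 3.93% and 4.01% in tt7-7. The means were 10.4 ± 3.28% and 3.87 ± 0.169% (SD, n = 3), a log2 difference of -1.37 (exact permutation p 0.1, adjusted 0.186), and the groups did not overlap. ACP2 held 42.4%, 36.7% and 36.2% in Col-0 and 45.8%, 44.0% and 42.5% in tt7-7, also without overlap (log2 difference 0.20, exact permutation p 0.1, adjusted 0.186). The 5 shares add up to the whole, so a smaller ACP5 share by itself raises the others. The ACP2 share is therefore not a separate result, and the level of ACP2 was not called. The shares of ACP1 (26.98% to 29.6% and 27.9% to 31.8%), ACP3 (15.4% to 16.7% and 15.6% to 19.2%) and ACP4 (5.82% to 8.44% and 3.46% to 6.12%) overlapped. Against ACP1 alone, a pair added after the values were seen, ACP5 was at 0.263, 0.484 and 0.350 in Col-0 and at 0.132, 0.140 and 0.126 in tt7-7. The ratio of these genes, whose windows above share the opening letters and hold the motif, thus differed between the groups by -1.42 on the log2 scale.

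**Figure D5:**
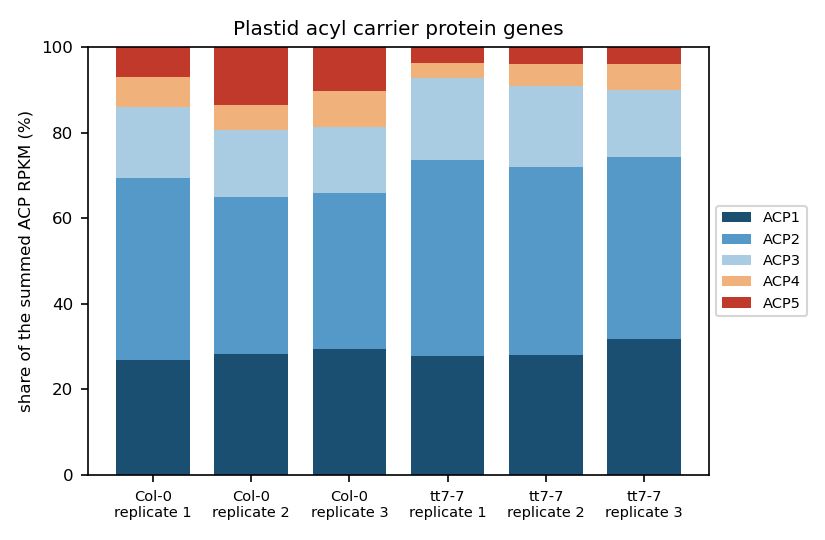
Share of each of the 5 plastid acyl carrier protein genes in their summed RPKM, in percent, as stacked bars for the 6 samples. The red ACP5 part is 7.10% to 13.7% in Col-0 and 3.69% to 4.01% in tt7-7. The ACP2 part is larger in every tt7-7 sample than in any Col-0 sample, where a smaller ACP5 part by itself raises the others.

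Of the 8 fatty acid synthase genes 1 was called. AT5G10160, a hydroxyacyl-ACP dehydratase, was at 156, 188 and 139 RPKM in Col-0 and at 125, 118 and 117 RPKM in tt7-7. The groups did not overlap, and the log2 fold change was -0.41 ± 0.15 (SE, limma adjusted p 0.0420). It stayed called lower after median-ratio scaling (-0.93) and quantile normalization (-0.31). With single samples left out it was called only without Col-0 replicate 3 (-0.51, limma adjusted p 0.0195), and in the other 5 fits the adjusted p was 0.0627 to 0.184, the highest without Col-0 replicate 2 (-0.29). Its relative AT2G22230 was at 123, 163 and 121 RPKM in Col-0 and at 131, 97.5 and 129 RPKM in tt7-7, with a log2 fold change of -0.18 that was not called, while after median-ratio scaling it was called lower at -0.70. The ratio of the pair overlapped between the groups (log2 difference -0.23, exact permutation p 0.3).

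The remaining synthase genes were not called on the deposited scale. KASIII (AT1G62640), which starts the chain, was at 39.6, 44.2 and 32.2 RPKM in Col-0 and at 49.0, 47.4 and 51.7 RPKM in tt7-7. The groups did not overlap, with a log2 fold change of 0.36 (limma adjusted p 0.0613) that was called without Col-0 replicate 2 (0.46, 0.0484). KASI (AT5G46290), which carries most of the lengthening, was at 217, 261 and 206 RPKM in Col-0 and at 306, 253 and 314 RPKM in tt7-7, a change of 0.35. MCAT (AT2G30200), which loads malonyl groups onto the carrier, changed by 0.33 and KASII (AT1G74960), which makes the last extension, by 0.12. These 4 genes were at -0.15, -0.17, -0.19 and -0.39 after median-ratio scaling, where KASII was called lower (limma adjusted p 0.0193). After quantile normalization KASI (0.61, limma adjusted p 0.00836) and MCAT (0.34, 0.0431) were called higher, and KASIII (0.16) and KASII (0.07) were not called. The reductases lay on the other side of 0, with AT1G24360 (3-ketoacyl-ACP reductase) at -0.10 and MOD1 (AT2G05990, enoyl-ACP reductase) at -0.25. MOD1 was at 205, 243 and 200 RPKM in Col-0 and at 194, 164 and 187 RPKM in tt7-7, without overlap, and its change was not called (limma adjusted p 0.182). After median-ratio scaling both reductases were called lower, MOD1 at -0.77 (limma adjusted p 0.00431) and AT1G24360 at -0.62 (0.0145). MOD1 was also called lower with scaling outside the 100 highest genes (-0.34, limma adjusted p 0.0469), and after quantile normalization neither was called (-0.06 and 0.08).

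Desaturation and release end the pathway. SSI2 (AT2G43710), a stearoyl-ACP desaturase, was at 192, 214 and 165 RPKM in Col-0 and at 192, 154 and 176 RPKM in tt7-7, with a log2 fold change of -0.13 that was not called. After median-ratio scaling it was called lower at -0.64. The thioesterases split the chain from its carrier, FATA1 mainly for unsaturated and FATB mainly for saturated chains. FATB (AT1G08510) was at 112, 111 and 99.3 RPKM in Col-0 and at 129, 155 and 157 RPKM in tt7-7. FATA1 (AT3G25110) was at 50.02, 58.9 and 40.9 RPKM in Col-0 and at 48.5, 50.3 and 50.3 RPKM in tt7-7. FATB rose without overlap, with a log2 fold change of 0.45 ± 0.14 (SE, limma adjusted p 0.0229), and FATA1 was at 0.01. After median-ratio scaling FATA1 was called lower at -0.50.

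The ratio of FATA1 to FATB was 0.447, 0.532 and 0.412 in Col-0 and 0.376, 0.325 and 0.321 in tt7-7. The groups did not overlap, with a log2 difference of -0.44 (exact permutation p 0.1, adjusted 0.186). LACS9 (AT1G77590), a plastid-bound enzyme that links released chains to CoA, was at 63.8, 68.7 and 49.3 RPKM in Col-0 and at 89.4, 87.2 and 79.7 RPKM in tt7-7. Every mutant sample lay above every wild-type sample, with a log2 fold change of 0.50 ± 0.16 (SE, limma adjusted p 0.0202). LACS9 was not called without tt7-7 replicate 1 (0.47, limma adjusted p 0.0647) or tt7-7 replicate 2 (0.49, 0.0624). FATB was not called without Col-0 replicate 2 (0.47, limma adjusted p 0.0558), Col-0 replicate 3 (0.39, 0.0515), tt7-7 replicate 2 (0.41, 0.0886) or tt7-7 replicate 3 (0.40, 0.0649). After median-ratio scaling FATB was at -0.07 and LACS9 at -0.01, neither called, and after quantile normalization both stayed called higher (0.53, limma adjusted p 0.0112, and 0.42, 0.0227).

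Replicates of the wild type differed from each other in step. Within Col-0, replicate 2 had the highest level for 28 of the 32 genes and replicate 3 the lowest for 29, and within tt7-7 replicate 2 had the lowest for 20. The median coefficient of variation of the 32 genes was 15.0% in Col-0 and 8.30% in tt7-7, and over all tested genes it was 15.6% and 11.1%.

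Other plastid genes of lipid supply, named by a list separate from the 32, included the plastid-encoded part of acetyl-CoA carboxylase. Among 18 tested genes there were 6 higher and 3 lower calls, against shares of 51.1% and 8.47% over all tested genes. The median log2 fold change was 0.20 beside 0.44 for all tested genes. ACCD (ATCG00500), the plastid-encoded carboxyltransferase beta subunit, was at 8.29, 34.7 and 16.2 RPKM in Col-0 and at 0.219, 0.575 and 0.537 RPKM in tt7-7. The log2 fold change was -3.64 ± 0.40 (SE, limma adjusted p 0.000158) on the log2(RPKM + 1) scale, with a fall on every scaling tried. The nuclear subunits were not called lower on the deposited scale. ACCD passed the 2 RPKM limit of the table only through Col-0, and its tt7-7 values lay below the 1 RPKM added. Its call is therefore no independent support for a fall. LIP2P (AT4G31050), counted among the higher calls, passed that limit only through tt7-7. Whether the libraries selected poly(A) RNA, which bears on plastid messages, is not given in the sources used here.

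GPT1 (AT5G54800), the glucose-6-phosphate carrier of the plastid envelope, was at 23.4, 22.7 and 19.6 RPKM in Col-0 and at 38.7, 42.1 and 37.2 RPKM in tt7-7. It rose by 0.82 on the log2 scale (limma adjusted p 0.000751), and by 0.32 after median-ratio scaling, where it was still called. Of the relatives of SSI2, AAD2 (AT3G02610) fell by 0.82 on the log2 scale, with 12.1 ± 2.57 RPKM in Col-0 against 6.30 ± 0.324 RPKM in tt7-7 (SD, n = 3). AAD1 (AT5G16240) rose by 0.63, with 32.2 ± 2.02 RPKM in Col-0 against 50.6 ± 4.16 RPKM in tt7-7, and was not called after median-ratio scaling (0.13). ACC2, AAD3 and AAD4 were not analysed here. Median-ratio scaling left 1 higher call in this list against 8 lower calls, at a median of -0.31. On that scale 26% of all tested genes were called higher and 27.8% lower.

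The mitochondrion has its own fatty acid synthesis and pyruvate dehydrogenase, which served for comparison. Among 14 tested genes there were 8 higher and 2 lower calls, where 51.1% and 8.47% of all tested genes were called, so the share of higher calls was near that of all genes. The median log2 fold change was 0.34. The E2 genes AT1G54220 and AT3G13930 rose by 1.04 and 0.80, where the plastid E2 genes LTA2 and EMB3003 were at -0.10 and -0.23. Levels differed as well, with Col-0 means of 7.67 and 34.2 RPKM against 113 and 149 RPKM. The mitochondrial E1 genes AT1G59900, AT1G24180 and AT5G50850 rose by 0.35, 0.47 and 0.34. Of the mitochondrial E3 genes, AT1G48030 was called lower at -0.44 and AT3G17240 at 0.19 was not called. LTA3 (AT3G52200), a further mitochondrial E2 gene, rose by 0.86, and the mitochondrial ketoacyl-ACP synthase MTKAS (AT2G04540) rose by 0.77, with 3.57 ± 0.256 RPKM in Col-0 against 6.79 ± 0.269 RPKM in tt7-7 (SD, n = 3). Median-ratio scaling left 3 higher calls against 5 lower ones, at a median of -0.17, beside 26% higher and 27.8% lower over all tested genes. AT3G13930 was not called on that scale (0.29). MTKAS was not called after quantile normalization (0.20). The difference between the plastid and mitochondrial lists was not tested.

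Of 8 tested regulators linked to WRI1 or to seed oil, 6 passed as higher and 1 as lower, where 51.1% and 8.47% of all tested genes did, and the median log2 fold change was 0.88. KIN10 (AT3G01090), a catalytic subunit of the SnRK1 kinase, which is known to phosphorylate WRI1, was at 23.9, 21.5 and 18.7 RPKM in Col-0 and at 47.9, 48.0 and 53.2 RPKM in tt7-7. It rose by 1.19 on the log2 scale (limma adjusted p 0.000181). WRI2 (AT2G41710) and WRI4 (AT1G79700), AP2-type relatives of WRI1, rose by 1.12 and 0.94, from levels of 6.68 ± 0.706 and 3.07 ± 0.232 RPKM in Col-0 (SD, n = 3) that were well under that of WRI1. L1L (AT5G47670), a LEC1-like factor of seed development, was at 98.0, 163 and 124 RPKM in Col-0 and at 65.6, 40.9 and 58.4 RPKM in tt7-7. It fell by 1.21 on the log2 scale (limma adjusted p 0.00177). These 4 genes kept their call and direction after median-ratio scaling, at 0.68, 0.64, 0.52 and -1.72, and after quantile normalization. WRI3 was not analysed here, and median-ratio scaling left 4 higher calls among the regulators against 2 lower ones, at a median of 0.40. The shares over all tested genes on that scale were 26% higher and 27.8% lower, and 8 genes are few to set against them.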

How the data were processed

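The authors deposited RPKM values, which are counts per gene length and library size, of 16967 genes in 6 seed samples, 3 per genotype. The submitters' processing notes name cutadapt, FastQC, HISAT2, HTSeq, DESeq2 and TAIR10, without versions or roles. Genes were present where all 3 samples of either genotype exceeded 2 RPKM. Reads recovered from the RPKM steps, with RefSeq transcript lengths, were whole within 0.02 for 16855 genes (99.3%).

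limma 3.58.1 in R 4.3.3 was fitted to log2(RPKM + 1) with a variance prior following the mean level, for 16663 genes with a mean of at least 2 RPKM, and p-values were adjusted by Benjamini-Hochberg with a threshold of 0.05. The fit was tested on simulated data in which few genes changed, in equal numbers up and down. That simulation could not test the scaling between samples. Ratios within samples used two-sided exact permutation tests. Fold changes on this scale understate those of low genes. Nothing states that replicates came from separate plants, so p-values measure only the spread between these samples.

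The members and lists were chosen with earlier results of these data known. All members are named; values per sample are given for WRI1, the extremes of each role, the pairs and the acyl carrier proteins, some more members were added after their values were seen, and up to 4 called genes per further list are named in order of p. RefSeq TAIR10.1 gave names and promoter sequences.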

Additional observations from a re-analysis of the deposited data

How the results depend on the processing

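Adding 0.1 or 0.5 RPKM in place of 1, dropping the filter or raising it to 10 RPKM, a flat variance prior and limma voom on recovered reads each left 5 of the 32 genes called higher and 2 lower. Median-ratio scaling gave 0 and 16, quantile normalization 11 and 3, and scaling without the 100 highest genes 4 and 5. With single samples left out the calls were 1 to 4 and 1 to 2. Shares over all tested genes are given only for the deposited, median-ratio and quantile scales with all samples. The counts of the other settings are therefore not read as a result about the list.

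Under median-ratio scaling the median was -0.43, and the following log2 fold changes turned negative: WRI1 -0.27, PKP-ALPHA -0.20, PKP-BETA1 -0.39, AT4G16155 -0.17, BCCP1 -0.32, CAC2 -0.16, CAC3 -0.059, ACP1 -0.47, ACP2 -0.32, ACP3 -0.36, MCAT -0.19, KASIII -0.15, KASI -0.17, KASII -0.39, FATA1 -0.50, FATB -0.071 and LACS9 -0.012. Under quantile normalization PDH-E1 ALPHA (0.21), PDH-E1 BETA (0.0039), AT1G24360 (0.078), SSI2 (0.044) and FATA1 (-0.16) changed sign. Outside the 100 highest genes ACP1 (-0.046) and FATA1 (-0.085) did. With single samples left out LTA2 ranged from -0.22 to 0.013, ACP1 from -0.11 to 0.19, AT1G24360 from -0.17 to 0.027 and FATA1 from -0.13 to 0.13. The cause was not tested.

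Whether the replicate numbers pair the samples could not be told. Deviations from the group means correlated at 0.21, -0.19 and 0.48 between same-numbered samples, the last being the highest of all pairs. Not every sample correlated best with its own number. Deviations within groups of 3 samples constrain each other, so these values cannot exclude a shared batch. With the replicate number as a block 4 of the 32 genes were called higher and 3 lower, ACP4 gaining a call (limma adjusted p 0.0301) and AT4G16155 losing one (0.0521), with a median of 0.087 and WRI1 at 0.24.

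Median-ratio scaling with single samples left out, added after the data were seen, gave 11 to 17 genes lower and 0 higher. No share over all tested genes is given for these fits, so the counts are not read as a result about the list. Each value of the 32 genes rested on 664 reads or more. Of 949 values computed under alternatives, 835 were labelled the same. A count of calls was labelled the same within 1.5-fold. Ratios within samples could change sign and still be labelled the same. The E1 beta ratio, for example, went from a log2 difference of 0.04 to -0.009 without Col-0 replicate 3.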
